A study of Mus musculus with 10 samples.

Results

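Most cathepsins are proteases of the lysosome. The 10 genes described here were Ctsb, Ctsc, Ctsd, Ctse, Ctsh, Ctsk, Ctsl, Ctss, Ctsz and Lgmn, which encodes the asparaginyl protease legumain. They were found by symbol among the 17603 genes to which the RefSeq models of the deposited tables were mapped, and all 10 had a value in every table. RNA sequencing had been applied to sorted cells that the labels call EPC, an abbreviation they do not spell out, from female wild-type C3H/HeN mice that bore tumors of SCC7, a mouse squamous cell carcinoma line labelled HNSCC. The libraries were 4 of tumor CD45+ cells, 3 of splenic CD45+ cells and 3 of splenic CD45- cells, so every spleen came from a tumor-bearing mouse and no tumor CD45- cells entered the comparisons. CD45 is the surface phosphatase of white blood cells. Levels are FPKM, that is fragments scaled to transcript length and to mapped fragments, summed over the RefSeq models of a gene.

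Most cathepsins are made as inactive precursors that mannose 6-phosphate tags route to the lysosome, where acid and limited cleavage release the active enzyme. The cysteine cathepsins B, C, H, K, L, S and Z use a catalytic cysteine, cathepsins D and E are aspartic proteases, and legumain, itself a cysteine protease of another clan, cuts after asparagine and trims several cathepsins to their mature forms. Macrophages are rich in most of them, whereas cathepsin E is known from red cell precursors, stomach and antigen-presenting cells.

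In GRCm38.p6, Ctss (chr3:95526786-95556405) lay next to Ctsk (chr3:95499210-95509387), and Ctsc (chr7:88278024-88315861) and Ctsd (chr7:142375910-142387827) shared chromosome 7. RefSeq promoter windows of 300 bases, 250 before and 50 after an annotated start, were matched for 7 of the 10 genes (8 windows, since Lgmn had 2 starts), and Ctsb, Ctse and Ctsh had none. The windows below are shown because they held 1 of 2 motifs that bear on lysosomal or myeloid genes: CACGTG, the core bound by the MiT factors that drive lysosomal genes, with its longer form TCACGTGA, and GAGGAAGT, a sequence bound by the myeloid factor PU.1 and other ETS proteins. A Ctsl window that also held CACGTG is not shown. Capitals mark these motifs, read on either strand, and each sequence runs 5′ to 3′ on the strand of its gene.
Ctsd, chr7:142387778-142388077, minus strand: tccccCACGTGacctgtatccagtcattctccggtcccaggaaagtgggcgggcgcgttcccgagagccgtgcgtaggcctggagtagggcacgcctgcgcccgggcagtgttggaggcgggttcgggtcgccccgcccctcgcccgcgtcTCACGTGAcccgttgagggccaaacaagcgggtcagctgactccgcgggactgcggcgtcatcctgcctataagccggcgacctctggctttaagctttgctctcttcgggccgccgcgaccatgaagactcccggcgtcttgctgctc
Lgmn, chr12:102439043-102439342, minus strand: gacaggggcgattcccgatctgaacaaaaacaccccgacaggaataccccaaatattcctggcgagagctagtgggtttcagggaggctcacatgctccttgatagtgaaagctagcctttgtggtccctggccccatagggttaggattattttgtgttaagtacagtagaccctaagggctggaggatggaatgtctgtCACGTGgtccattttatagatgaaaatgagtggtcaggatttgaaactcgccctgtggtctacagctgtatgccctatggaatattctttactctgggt
Ctss, chr3:95526536-95526835, plus strand: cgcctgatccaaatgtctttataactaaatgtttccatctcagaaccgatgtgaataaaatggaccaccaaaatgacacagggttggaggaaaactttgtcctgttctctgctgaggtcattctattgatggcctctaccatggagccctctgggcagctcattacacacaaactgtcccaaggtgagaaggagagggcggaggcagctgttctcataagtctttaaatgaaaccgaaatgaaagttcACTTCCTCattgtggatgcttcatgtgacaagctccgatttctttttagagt
Ctsc, chr7:88277835-88278134, plus strand: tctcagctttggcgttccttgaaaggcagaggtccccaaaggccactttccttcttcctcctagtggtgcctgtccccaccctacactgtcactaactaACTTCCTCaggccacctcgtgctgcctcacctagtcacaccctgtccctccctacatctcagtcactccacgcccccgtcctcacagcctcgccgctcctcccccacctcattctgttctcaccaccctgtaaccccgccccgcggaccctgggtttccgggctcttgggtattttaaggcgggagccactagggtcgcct
TCACGTGA stood at base 152 of the Ctsd window and in 0.974% of the 32851 RefSeq promoter windows. CACGTG, which lies within TCACGTGA, stood in 7.15% of all windows and in 3 of the 8 member windows: at bases 6 and 153 of Ctsd, at base 202 of the Lgmn window shown, and at base 15 of a Ctsl window. The Ctsl window and the Lgmn window shown both lay inside the annotated span of their gene, and the Lgmn window at the other start (chr12:102439679-102439978) held none of the motifs. GAGGAAGT stood, as its reverse complement, at base 249 of Ctss and base 100 of Ctsc, and in 3.20% of all windows. The GATA motifs AGATAA (11.2% of all windows) and TGATAA (9.05%) each occurred once among the members, both in Ctsz, and CCACCC (31.5%), the kind of sequence bound by KLF factors, occurred in the windows of Ctsc and Ctsl. These are matches of letters on both strands in short windows and show no binding.

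By the steps in the low values of single-model genes, a library held about 18100000 to 21100000 fragments. The labelled cell types differed widely in their defining markers. Summed over 15 erythroid genes, tumor CD45+ libraries had 6001 to 40982 FPKM, splenic CD45+ libraries 130532 to 277280 and splenic CD45- libraries 327270 to 417569. Nearly all of the tumor sum was globin. Of the other erythroid genes, Alas2 was at 39.4 to 224 FPKM and Tfrc at 11.7 to 18.4 in tumor libraries, and none of the rest, among them Klf1, Gata1, Epor and Slc4a1, passed 3.58 FPKM there. The summed level of 15 macrophage genes was 24733 to 46715 FPKM in tumor CD45+, 1361 to 4590 in splenic CD45+ and 69.0 to 124 in splenic CD45- libraries. Tumor libraries also held fibroblast RNA (each of the 7 genes reached 1 FPKM in some tumor library, summed level 143 to 199 FPKM, against at most 2.06 in any spleen library). They held Krt8 and Krt18 RNA too, which made up nearly all of the summed level of 8 epithelial genes (313 to 406 FPKM). The squamous keratins Krt5 and Krt14 were at 0 to 0.13 FPKM there. Of the other listed genes, Cdh1 was at 1.56 to 2.66 FPKM in tumor and 0.22 to 0.53 in splenic CD45+ libraries. Epcam was at 0.02 to 0.04 and 0.14 to 2.08 in these groups, Sfn at 0.40 to 0.78 and 0.74 to 2.99, and Trp63 at 0.02 to 0.08 and 0 to 0.01. A pair of libraries stood apart from their groups. Splenic CD45+ replicate 2 had the lowest macrophage sum of its group, and tumor replicate 1 had 10.4% of its summed FPKM in globin genes, against 1.80% to 1.87% in the other tumor libraries. In bulk RNA, more cells of a type and more RNA per cell cannot be told apart.

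**Figure D1:**
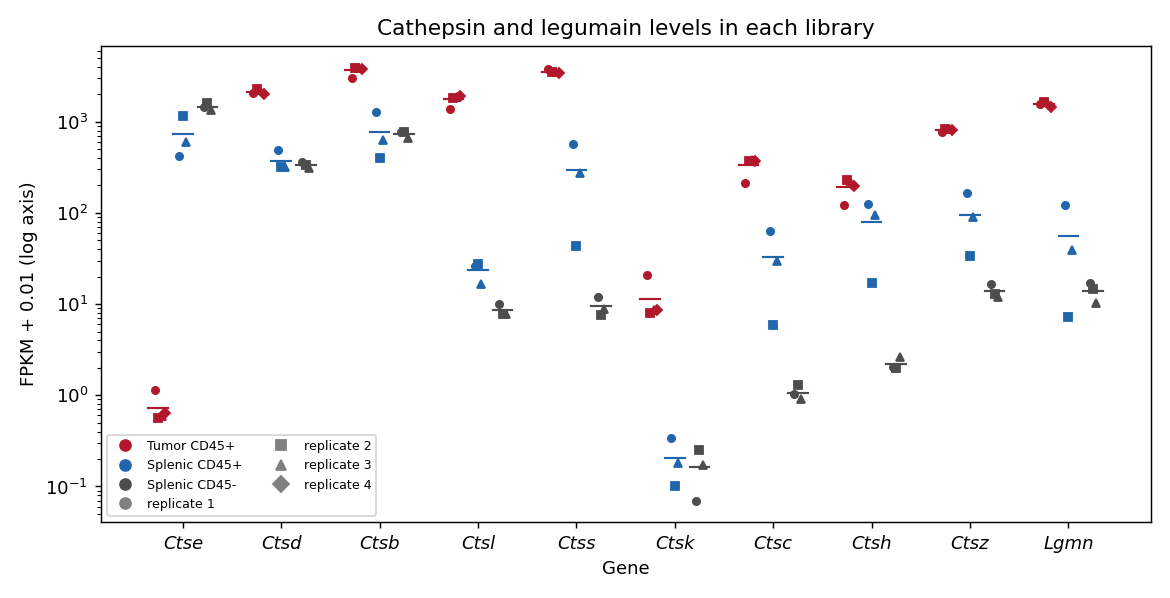
Level of each member in every library, as FPKM on a log axis, with tumor CD45+, splenic CD45+ and splenic CD45- libraries from left to right for each gene and the bar at the group mean (0.01 FPKM was added to all values for the axis). Ctse was the only member whose tumor libraries all lay below every spleen library.

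Tumor CD45+ libraries held far more cathepsin RNA than splenic CD45+ libraries, the comparison of 1 gate across 2 tissues. The sum over the 10 members was 14020 ± 785 FPKM in tumor CD45+ libraries (SD, n = 4), 2458 ± 688 in splenic CD45+ and 2595 ± 192 in splenic CD45- libraries (SD, n = 3 each), which was 1.67%, 0.246% and 0.198% of the summed FPKM of a library. In limma's test on log2(FPKM + 1), all 10 members passed the filter of 1 FPKM in at least 3 of the libraries compared, 9 were higher in the tumor and 1, Ctse, was lower, at an adjusted p below 0.05. Ctsk, below 1 FPKM in every spleen library, could be called in 1 direction only, and without it 8 of 9 were higher and the median log2 change of the 9 was 3.34. Over all genes tested, 63.8% were called, 37.7% higher and 26% lower. The members' median log2 change was 3.31, beside 0.20 over all genes tested. Library ranges were apart, with the tumor higher, for 8 members (38.4% of all genes) and with the tumor lower for 1 (28.1%), or for 7 and 1 without Ctsk.

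The split of calls over all genes depended on the scaling. Of all genes called in tumor against splenic CD45+ libraries, 59.2% were higher on the deposited scale, 70.3% after scaling to a common sum and 41.0% with the globin genes removed first, and the all-gene median was -0.21 in the last case. Under each of these the members called were 9 higher and 1 lower or, where Ctsh was lost, 8 higher and 1 lower.

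Of the endopeptidases, Ctsl changed most among the members that rose in tumor against splenic CD45+ libraries. Cathepsin L is a broad lysosomal endopeptidase that also degrades the invariant chain in thymic epithelium. Its levels were 1371, 1833, 1881 and 1921 FPKM in tumor libraries, 26.4, 27.5 and 16.4 in splenic CD45+ libraries and 9.93, 7.73 and 7.86 in splenic CD45- libraries. The 3 groups did not overlap, and splenic CD45+ replicate 2, low for most members, was the highest of its group. The tumor mean was 74.8 times the splenic CD45+ mean, with a log2 change of 6.19 ± 0.22 (SE, adjusted p = 5.38e-07). Nearly all of this value (99.4% in tumor, 99.5% in splenic CD45+ and 99.7% in splenic CD45- libraries) lay on a predicted RefSeq model of Ctsl. The curated model averaged 10.1 FPKM in tumor and 0.11 in splenic CD45+ libraries, and counting curated models alone the log2 change was 3.31.

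Ctss encodes cathepsin S, which cuts the invariant chain in antigen-presenting cells and stays active at neutral pH. It reached 3755, 3482, 3530 and 3428 FPKM in tumor libraries, 576, 43.7 and 276 in splenic CD45+ and 11.9, 7.61 and 8.87 in splenic CD45- libraries. The groups were apart, and the splenic CD45+ libraries spanned the widest range. The tumor mean was 11.9 times the splenic CD45+ mean, and the log2 change was 4.20 ± 0.75 (SE, adjusted p = 0.0017). Without splenic CD45+ replicate 2 it was 3.15 ± 0.27 (adjusted p = 3.50e-05).

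Ctsk, whose product degrades collagen and is best known from osteoclasts and fibroblasts, was low everywhere but in the tumor. It had 20.7, 8.02, 8.67 and 8.50 FPKM in tumor libraries, 0.33, 0.09 and 0.17 in splenic CD45+ and 0.06, 0.24 and 0.16 in splenic CD45- libraries. Since no spleen library reached 1 FPKM, it passed the filter through the tumor libraries and only a call higher in the tumor was possible. Its curated model alone had about 0.557 to 6.83 fragments in a spleen library. A predicted model, left out of that estimate, carried 0% to 77.8% of Ctsk in splenic CD45+ and 0% to 43.8% in splenic CD45- libraries. The log2 change against splenic CD45+ libraries was 3.28 ± 0.31 (SE, adjusted p = 7.0e-05), and 2.98 without tumor replicate 1. Of the osteoclast markers, Calcr, Oscar and Dcstamp were at or near 0 (at most 0.21 FPKM) in every library, and Acp5 was at 18.9 to 21.8 FPKM in tumor libraries, against 90.5 to 217 in splenic CD45+ libraries. Ocstamp was at 0.09 to 0.38 FPKM in tumor, 0.04 to 2.49 in splenic CD45+ and at most 0.05 in splenic CD45- libraries. Tumor replicate 1, the highest for Ctsk, was also the highest of its group for the fibroblast genes Dcn (13.5 FPKM, against 5.11 to 5.86), Lum (3.33, against 0.92 to 1.15) and Pdgfrb (1.96, against 1.61 to 1.78). It was the lowest of its group for the fibroblast genes Col1a1, Col1a2, Col3a1 and Pdgfra. The part of fibroblast RNA in the Ctsk value was not tested.

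Ctsb encodes cathepsin B, which works as an endopeptidase and trims dipeptides from carboxyl ends. It was the most abundant member in 3 of the 4 tumor libraries, with 3051, 3920, 3902 and 3756 FPKM, against 1268, 401 and 633 in splenic CD45+ and 771, 780 and 671 in splenic CD45- libraries. Tumor libraries lay above all spleen libraries, and the spleen groups overlapped. The log2 change in tumor against splenic CD45+ libraries was 2.41 ± 0.36 (SE, adjusted p = 0.00071). A predicted model carried 82.5%, 76.6% and 78.2% of Ctsb in tumor, splenic CD45+ and splenic CD45- libraries.

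Of the exopeptidases, Ctsc (dipeptidyl peptidase I), which activates granule serine proteases, had 214, 367, 383 and 374 FPKM in tumor libraries, 63.0, 5.94 and 29.7 in splenic CD45+ and 1.01, 1.27 and 0.90 in splenic CD45- libraries. All 3 groups were apart, and the log2 change in tumor against splenic CD45+ libraries was 3.77 ± 0.67 (SE, adjusted p = 0.0017), or 2.88 without splenic CD45+ replicate 2. Ctsz (cathepsin Z, also called X), a carboxypeptidase, had 772, 831, 832 and 816 FPKM in tumor libraries, 164, 33.8 and 89.2 in splenic CD45+ and 16.5, 12.9 and 12.1 in splenic CD45- libraries. It was also apart in all 3 groups, with a log2 change of 3.34 ± 0.46 (SE, adjusted p = 0.00045).

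Ctsh, an aminopeptidase, gave the weakest call. It had 123, 232, 225 and 199 FPKM in tumor libraries, 124, 16.9 and 95.5 in splenic CD45+ and 2.01, 1.98 and 2.62 in splenic CD45- libraries. Tumor replicate 1 lay just below splenic CD45+ replicate 1, so the CD45+ groups overlapped. The log2 change was 1.66 ± 0.64 (SE, adjusted p = 0.0497), and it lost the call without any of the 4 tumor libraries (adjusted p = 0.0652 to 0.103) or without splenic CD45+ replicate 3 (adjusted p = 0.0547). Without splenic CD45+ replicate 2 the log2 change was 0.79 (adjusted p = 0.0286), and with the globin genes removed it was 1.21 (adjusted p = 0.156).

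Lgmn had 1582, 1630, 1639 and 1463 FPKM in tumor libraries, 122, 7.22 and 38.8 in splenic CD45+ and 16.9, 14.7 and 10.2 in splenic CD45- libraries. Tumor libraries were apart from the rest, while splenic CD45+ replicate 2 fell below all 3 splenic CD45- libraries. The tumor mean was 28.3 times the splenic CD45+ mean, with a log2 change of 5.53 ± 0.77 (SE, adjusted p = 0.00049), and the log2 change was 4.50 without splenic CD45+ replicate 2.

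The aspartic pair went opposite ways. Ctsd, a housekeeping endopeptidase of lysosomes, had 2039, 2270, 2209 and 1999 FPKM in tumor libraries, 490, 316 and 318 in splenic CD45+ and 366, 338 and 312 in splenic CD45- libraries. The tumor lay above both spleen groups, which overlapped, and the log2 change against splenic CD45+ libraries was 2.53 ± 0.19 (SE, adjusted p = 2.11e-05).

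Ctse had 1.12, 0.55, 0.58 and 0.63 FPKM in tumor libraries, 417, 1169 and 605 in splenic CD45+ libraries and 1452, 1592 and 1356 in splenic CD45- libraries. The 3 groups were apart, with the tumor lowest, and splenic CD45+ replicate 2, low for most members, was the highest of its group. The tumor mean was 1014-fold lower than the splenic CD45+ mean and 2037-fold lower than the splenic CD45- mean, with log2 changes of -8.61 ± 0.33 (SE, adjusted p = 6.77e-07) and -9.75 ± 0.12 (SE, adjusted p = 5.06e-11). In the tumor the gene rested on about 24.3 to 50.2 fragments a library, and tumor replicate 1, richest in globin, was the highest of the 4. Among splenic CD45+ libraries it was otherwise, since replicate 2, highest for Ctse, had the lowest globin share (29.3%, against 42.3% and 52.1%).

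Across the 10 libraries the gene closest to Ctse was Klf1, the erythroid transcription factor, at a Pearson correlation of log2 values of 0.9997, followed by Slc14a1, the urea transporter of red cells, and Gata1, the erythroid master regulator (over 11541 genes searched, a description of libraries that differ mainly by group). The ratio of Ctse to Klf1 was 1.54 to 1.91 in splenic CD45+ libraries and 1.84 to 2.21 in splenic CD45- libraries. Klf1 itself had 271, 613 and 329 FPKM in splenic CD45+ and 788, 719 and 704 in splenic CD45- libraries, and 0.09 to 0.45 in tumor libraries, too low for a ratio to be read. Ctse had about 2.15 times the level of Ctsd in splenic CD45+ libraries (0.851 to 3.70) and 4.34 times in splenic CD45- libraries (3.97 to 4.71).

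**Figure D2:**
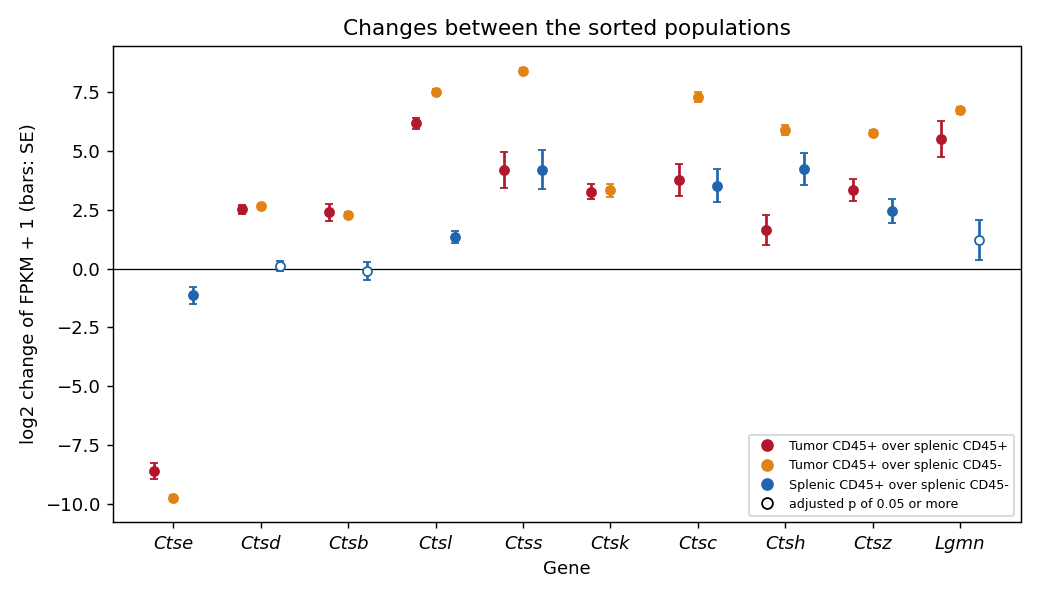
Log2 change of each member (limma on log2(FPKM + 1), bars are the standard error) for tumor CD45+ against splenic CD45+, splenic CD45+ against splenic CD45- and tumor CD45+ against splenic CD45- libraries. Ctse is negative in all 3 comparisons, at -8.61, -1.14 and -9.75, and Ctsb and Ctsd sit near 0 in the comparison within the spleen.

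Within the spleen, where the comparison set the CD45 gates against each other in 1 organ, 9 members passed the filter (Ctsk did not) and 5 were higher in splenic CD45+ libraries: Ctsc, Ctsh, Ctsl, Ctss and Ctsz. Ctse was lower, and Ctsb, Ctsd and Lgmn did not pass the test. Over all genes tested, 55.5% were called, 50.5% higher and 5.02% lower, and library ranges were apart for 59% (higher) and 7.24% (lower), against 5 and 1 of the 9 members. The members' median log2 change of 1.33 stands beside 0.67 over all genes tested. That all-gene shift was 0.022 with trimmed-mean scaling. The share of higher calls among all genes called was 91.0% on the deposited scale, 57.4% with trimmed-mean and 53.5% with median-ratio scaling.

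The largest log2 changes within the spleen were those of Ctsh, 4.23 ± 0.67 (SE, adjusted p = 0.0023), Ctss, 4.22 ± 0.83 (adjusted p = 0.0046), and Ctsc, 3.54 ± 0.72 (adjusted p = 0.0051). Ctsz followed at 2.45 ± 0.52 (SE, adjusted p = 0.0060) and Ctsl at 1.33 ± 0.25 (adjusted p = 0.0039). These 5 kept their calls under trimmed-mean and median-ratio scaling and without splenic CD45+ replicate 2. Ctse was called lower at a log2 change of -1.14 ± 0.36 (adjusted p = 0.0293). Its call was lost without any of the 3 splenic CD45- libraries (adjusted p = 0.0629 to 0.0876), without splenic CD45+ replicate 1 (adjusted p = 0.0784, log2 change -0.80) or 3 (adjusted p = 0.0885) and with all libraries scaled to the same sum (log2 change -0.75, adjusted p = 0.128). Without splenic CD45+ replicate 2 the log2 change was -1.54 (adjusted p = 5.70e-05).

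Ctsb and Ctsd, the members with the highest level beside Ctse in splenic CD45- libraries, had log2 changes of -0.11 ± 0.39 (SE, adjusted p = 0.835) and 0.12 ± 0.22 (adjusted p = 0.687) within the spleen. The sign of both turned with the setting. Ctsd was called lower under trimmed-mean scaling (-0.63, adjusted p = 0.0458) and under median-ratio scaling (-0.66, adjusted p = 0.0470), and Ctsb was at -0.86 (adjusted p = 0.108) under trimmed-mean scaling and 0.27 after scaling to a common sum. Lgmn had a log2 change of 1.23 ± 0.86 (SE, adjusted p = 0.262), which was 2.25 (adjusted p = 0.00075) without splenic CD45+ replicate 2.

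In tumor CD45+ against splenic CD45- libraries, where tissue and gate cannot be told apart, 9 members were higher and Ctse was lower, of 10 tested, or 8 higher and 1 lower without Ctsk. Over all genes tested, 90% were called, 67.5% higher and 22.5% lower, with ranges apart for 66.5% and 22.2% and for 9 and 1 of the members. The members' median log2 change was 5.84, beside 1.06 over all genes tested, and that shift was 0.030 with trimmed-mean scaling. Of all genes called, 75.0% were higher on the deposited scale, 50.8% with trimmed-mean scaling, 53.2% with median-ratio scaling and 61.6% with the globin genes removed. The log2 changes were largest for Ctss, 8.43 ± 0.13 (SE, adjusted p = 8.65e-11), Ctsl, 7.52 ± 0.14 (adjusted p = 1.78e-10), and Ctsc, 7.31 ± 0.20 (adjusted p = 1.39e-09). They were smallest for Ctsb, 2.30 ± 0.13 (SE, adjusted p = 1.48e-07), and Ctsd, 2.65 ± 0.10 (adjusted p = 1.10e-08). The 3 comparisons share libraries pairwise, so their values stand side by side here and do not support each other.

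**Figure D3:**
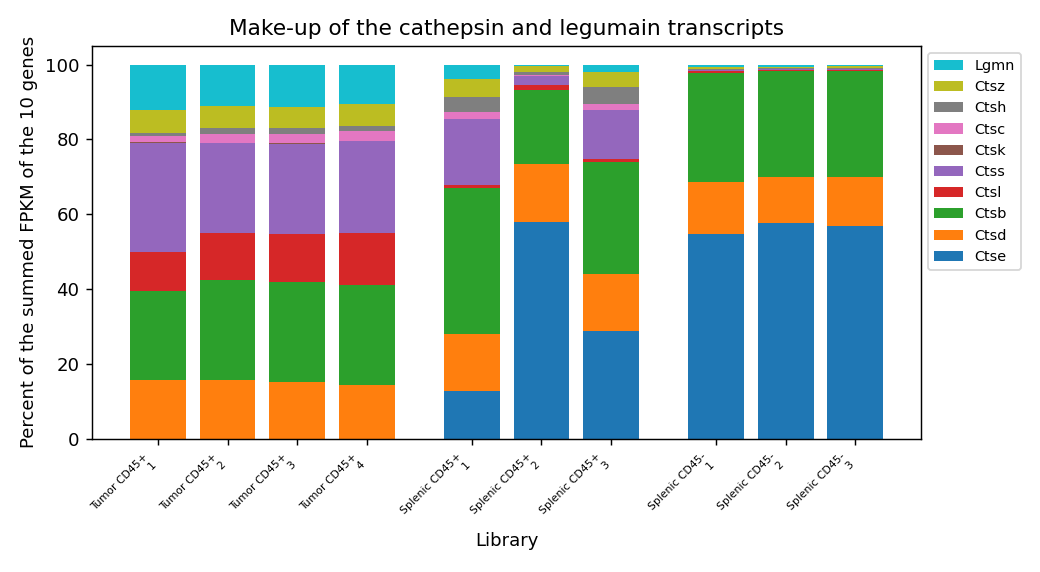
Share of each member in the summed FPKM of the 10 members, as percent, for each library, with tumor CD45+ libraries at the left and splenic CD45- libraries at the right. Ctse takes 54.8% to 57.8% in splenic CD45- libraries and at most 0.00866% in tumor libraries.

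The make-up of the family, as a share of the summed FPKM of its 10 members in the same library, does not depend on the scaling between libraries. In tumor libraries Ctsb took 26.0% ± 1.62, Ctss 25.4% ± 2.44, Ctsd 15.2% ± 0.647, Ctsl 12.5% ± 1.33 and Lgmn 11.3% ± 0.723 (SD, n = 4). In splenic CD45- libraries Ctse took 56.5% ± 1.50, Ctsb 28.5% ± 0.528 and Ctsd 13.1% ± 0.784 (SD, n = 3), and each of the other members stayed below 1%. Splenic CD45+ libraries spread between these patterns, with Ctse at 33.2% ± 22.8 (SD, n = 3; lowest 12.8%, highest 57.8% in replicate 2) and Ctss at 11.0% ± 7.99. In the same libraries Ctsb took 29.7% ± 9.60 and Ctsd 15.3% ± 0.323.

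Between the CD45+ groups, Ctsl took 12.5% in tumor and 0.984% in splenic CD45+ libraries, and Ctss took 25.4% and 11.0%. Ctsh took 1.38% ± 0.292 (SD, n = 4) in tumor and 3.07% ± 1.96 (SD, n = 3) in splenic CD45+ libraries. The Ctsh shares overlapped, at 0.951% to 1.59% in tumor and 0.837% to 4.54% in splenic CD45+ libraries. No test was run on these shares.

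**Figure D4:**
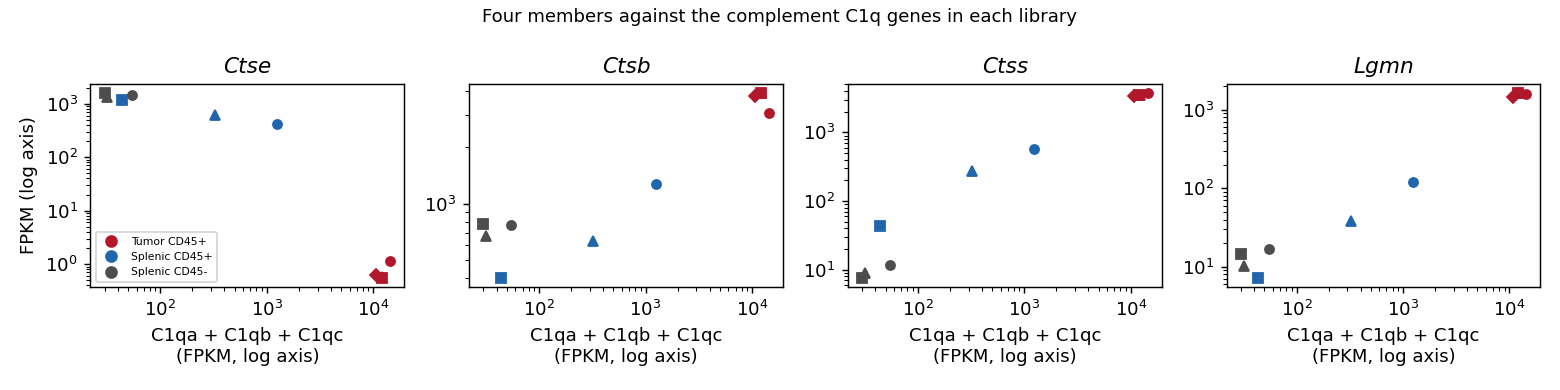
Level of 4 members (FPKM, log axis) against the summed level of C1qa, C1qb and C1qc (FPKM, log axis) in the same library, 1 point per library. Lgmn follows the C1q sum through the CD45+ libraries, and Ctse runs the other way.

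Against the summed level of the complement genes C1qa, C1qb and C1qc, which macrophages express and which were chosen here after their values were seen, the members differed. The C1q sum was 10691 to 14375 FPKM in tumor, 43.9 to 1243 in splenic CD45+ and 30.0 to 54.6 in splenic CD45- libraries. Lgmn stood at 0.110 to 0.137 of that sum in tumor libraries and at 0.0978 to 0.165 in splenic CD45+ libraries, so the ratio overlapped between the CD45+ groups although the level of Lgmn did not. In splenic CD45- libraries it was 0.310 to 0.488, apart from both. Such overlap was not particular to Lgmn. Ctsl stood at 0.0954 to 0.180 of the C1q sum in tumor and 0.0212 to 0.627 in splenic CD45+ libraries, and Ctsk at 0.000666 to 0.00144 and 0.000266 to 0.00205. Ctss stood at 0.261 to 0.321 of the C1q sum in tumor, 0.464 to 0.995 in splenic CD45+ and 0.219 to 0.278 in splenic CD45- libraries. Ctsb stood at 0.212 to 0.351, 1.02 to 9.13 and 14.1 to 26.0 in the same 3 groups. Of the 15 macrophage genes, 12 were higher in tumor than in splenic CD45+ libraries, where 37.7% of all genes tested were, and Mertk, Cd163 and Apoe did not pass the test. Vsig4 was below 1 FPKM in every splenic CD45+ library, so only a higher call was possible for it. Without Vsig4, 11 of 14 were higher. Cd163 averaged 6.12 FPKM in tumor and 13.2 in splenic CD45+ libraries. The part of macrophage RNA in the members' changes was not tested.

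The genes whose pattern over the 10 libraries was closest to each member, by Pearson correlation of log2(FPKM + 1), were mostly of mixed function. For Lgmn they were Dusp1, Ifitm3 and Nfe2l1 (0.998 for Dusp1), for Ctsz they were Grn, Capn2 and Slc15a3, and for Ctsb they were Laptm4a, Slc16a13 and Hdac5 (0.991 for Laptm4a). For Ctsl they were P3h1, Dhrs3 and Stard6, for Ctss St6galnac4, Tpcn2 and Psmb10, and for Ctsd Spry4, Epb41l1 and Sh3pxd2b. For Ctsc they were Diaph2, Dtx4 and Cd300ld, for Ctsh Pik3ap1, Appl1 and Pdia4, and for Ctsk Cspg4, Ambp and Ltc4s. Grn encodes progranulin, a lysosomal glycoprotein, and Laptm4a a lysosomal membrane protein, and the points share group, depth and cell make-up.

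Other cathepsins did not all follow. Of the genes listed, 6 had a value in the tables and were tested. In tumor against splenic CD45+ libraries Ctsa (a serine carboxypeptidase that protects other lysosomal enzymes) and Ctso were higher, with log2 changes of 3.34 and 1.28, and Ctsf and Ctsg were lower, with -1.92 and -3.43. Ctsw and Napsa, the gene of the aspartic protease napsin, did not pass the test, and Ctso lost its call with the globin genes removed (adjusted p = 0.121). Ctsf, a cysteine cathepsin, fell in the tumor like Ctse: it had 10.6, 8.95, 8.65 and 7.64 FPKM in tumor libraries, 54.5, 29.5 and 30.3 in splenic CD45+ and 60.5, 52.0 and 47.6 in splenic CD45- libraries. Its spleen groups overlapped, and its log2 change within the spleen was -0.53 (adjusted p = 0.140). Within the spleen the other 5 were higher in splenic CD45+ libraries, Ctsg by a log2 change of 4.01, where 50.5% of all genes tested were higher. Ctsw was below 1 FPKM in every splenic CD45- library, so only a higher call was possible for it. Without Ctsw, 4 of 5 tested were higher. With trimmed-mean scaling Ctsa was lost (adjusted p = 0.0936) and Ctsf was called lower (-1.26, adjusted p = 0.0095).

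The inhibitors of cysteine cathepsins moved both ways. Of 8 tested in tumor against splenic CD45+ libraries, 3 rose (Cst3, Cstb and Cst6) and 4 fell, with Cst7 not called. Over all genes tested there, 37.7% were higher and 26% lower. Cst6, listed at 0 in all 3 splenic CD45+ libraries and at 1.38 to 2.05 FPKM in the tumor, passed the filter through the tumor alone, so only a higher call was possible. Without Cst6, 2 of 7 rose and 4 fell. Cst3 (cystatin C, secreted) had 3208, 2427, 2556 and 2465 FPKM in tumor libraries, 855, 139 and 538 in splenic CD45+ and 53.4, 42.9 and 50.8 in splenic CD45- libraries, with a log2 change of 2.72 (adjusted p = 0.0032). Cstb (stefin B, cytosolic) averaged 1091 ± 133 FPKM in tumor (SD, n = 4), 45.3 ± 15.9 in splenic CD45+ and 10.2 ± 0.885 in splenic CD45- libraries (SD, n = 3 each), with a log2 change of 4.62 (adjusted p = 4.03e-06). The stefin A genes Stfa1, Stfa2l1 and Stfa3, close copies that share reads and are known from neutrophils, fell, with log2 changes of -3.20, -4.19 and -2.77. Summed neutrophil markers moved with them, at 50.7 to 1751 FPKM in tumor (the highest in replicate 1, with a group median of 57.9), 23023 to 77315 in splenic CD45+ and 383 to 519 in splenic CD45- libraries, and their part in the result was not tested. All 7 inhibitors tested within the spleen were higher in splenic CD45+ libraries, where 50.5% of all genes tested were, and 5 of the 7 were below 1 FPKM in every splenic CD45- library, so only a higher call was possible for them.

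Most other lysosomal genes tested were also higher in the tumor. Of all genes tested in tumor against splenic CD45+ libraries, 37.7% were higher and 26% lower, and the counts of each gene list stand beside these shares. Of 35 other hydrolases, 33 rose and 0 fell, with a median log2 change of 1.91. Gla (α-galactosidase A), Fuca1 (α-fucosidase) and Scpep1 had log2 changes of 3.69, 1.58 and 2.82. With the globin genes removed 25 of the 35 were higher and 0 lower. Within the spleen 31 were higher in splenic CD45+ libraries and 1, Dnase2a, the acid DNase that degrades expelled erythroid nuclei in macrophages, was lower (log2 change -0.75), where 50.5% of all genes tested were higher and 5.02% lower. Without the 9 hydrolases below 1 FPKM throughout a group, 22 of 26 were higher and 1 lower. With trimmed-mean scaling 22 of the 35 were higher and 1 lower, and with a common sum the Dnase2a call was lost (log2 change -0.38, adjusted p = 0.276).

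Of 14 lysosomal membrane proteins, 13 rose and 0 fell in tumor against splenic CD45+ libraries, led by Cd63, Lamp2 and Lamp1 with log2 changes of 4.22, 2.78 and 2.40. Of 15 subunits and partners of the vacuolar proton pump, which acidifies the lysosome, 14 rose, among them Atp6v1a (2.05), Atp6v0c (2.29) and Atp6ap2 (1.85), and Atp6v0a1 was at -0.18 and not called. With the globin genes removed, 9 of the 14 membrane proteins were higher and 0 lower, and 10 of the 15 pump genes were higher and 1 lower. Within the spleen, where 50.5% of all genes tested were higher and 5.02% lower, the pump was mixed on the deposited scale. There 5 were higher, 1 lower and 9 not called, with a median of 0.13, but with trimmed-mean scaling 2 were higher, 8 lower and the median was -0.61. The median over all genes moved between these scalings as given above.

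In the mannose 6-phosphate route, 4 of 6 genes rose in tumor against splenic CD45+ libraries (Gnptg, Nagpa, M6pr and Gnptab) and 2 fell. With the globin genes removed the call of Gnptab was lost (log2 change 0.51, adjusted p = 0.0829). Sort1, which encodes sortilin, a sorting receptor that needs no mannose 6-phosphate, fell by 2.97 on the log2 scale, to 0.79, 0.79, 0.88 and 0.82 FPKM in tumor libraries, against 21.4, 7.31 and 14.7 in splenic CD45+ libraries, so only a lower call was possible. Igf2r, the large mannose 6-phosphate receptor, was at -0.53, a call lost with a common sum (adjusted p = 0.277). M6pr, the small one, was at 1.07. Of the MiT transcription factors, Mitf (2.17), Tfec (1.45) and Tfe3 (0.94) were higher in the tumor and Tfeb (-0.17) did not pass the test. With the globin genes removed 1 of the 4 was called. Mitf had 6.69, 6.64, 6.89 and 7.44 FPKM in tumor libraries, 1.51, 0.37 and 0.59 in splenic CD45+ and at most 0.02 in splenic CD45- libraries.

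Most genes of class II presentation and Ctss moved in opposite directions between the CD45+ groups. Of 11 genes of the invariant chain, class II molecules and their loading and control, a route in which cathepsin S cuts the invariant chain, 8 fell in tumor against splenic CD45+ libraries and 1, Ifi30, the lysosomal thiol reductase, rose (1.65). H2-Ob, H2-DMb2 and Ciita fell, with log2 changes of -4.58, -3.89 and -3.37. H2-Ob and Ciita stayed below 1 FPKM in every tumor library, so only a lower call was possible for them. The invariant chain gene Cd74 had 108, 279, 295 and 261 FPKM in tumor libraries and 2948, 229 and 1902 in splenic CD45+ libraries, which overlapped, and its call (adjusted p = 0.0417) was lost without tumor replicate 1 (adjusted p = 0.114). Without that library 4 of the 11 fell and 0 rose. Summed B cell markers were 48.1 to 56.7 FPKM in tumor, 144 to 1323 in splenic CD45+ and 25.5 to 32.0 in splenic CD45- libraries, and their part in the result was not tested.

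Of 8 granule serine proteases, a class cathepsin C is known to activate, 5 fell and 1 rose in tumor against splenic CD45+ libraries. Elane (neutrophil elastase), Prtn3 (proteinase 3) and Prss34, a basophil and mast cell protease, fell, with log2 changes of -6.10, -5.42 and -4.99, while Ctsc rose. Without Mcpt8, Prss34 and Tpsb2, which were below 1 FPKM throughout a group, 3 of 5 fell and 0 rose. Elane had 1.92, 0.06, 0 and 0 FPKM in tumor libraries and 81.3, 52.5 and 170 in splenic CD45+ libraries, and the neutrophil markers given above fell with it. Tpsb2, a mast cell tryptase, rose by 1.13 through tumor libraries at 0.83 to 1.74 FPKM. Gzmb did not pass the test on all libraries (log2 change 1.89, adjusted p = 0.0610) and did without tumor replicate 1 (2.52, adjusted p = 0.0113).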

How the data were processed

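Sorted cells of 3 groups were profiled by RNA sequencing in 10 libraries. RNA was extracted with TRIZOL and libraries were made by a sequencing company, per the labels' protocols. Not given in the sources used here were the kit, strand use, aligner, annotation and estimation program. Per the submitters' processing notes, the reads belong to build GRCm38.p6. For every library the authors deposited a table of 61685 RefSeq models. Its unit is named nowhere. It was taken as FPKM because the deposited values scale with neither a fixed sum nor whole counts and because, in single-model genes of 400 to 1200 bases, low values climb by the worth of 1 fragment, from which depth was read. FPKM depends on the other RNA in a library, here globin RNA above all. Models with a gene symbol (60167) were summed per gene, and there were 0 further columns of per-sample values.

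For each comparison, limma (version 3.58.1, R version 4.3.3) was run with an intensity trend on log2(FPKM + 1). Genes entered if 3 or more of the libraries in that comparison reached 1 FPKM, and other libraries stayed out of the fit. P-values were adjusted by Benjamini-Hochberg over all genes tested, with calls at an adjusted p below 0.05. This scale understates fold changes of low genes. Nothing states that replicates came from separate mice, so p-values reflect the spread of these samples alone, which may be technical. The procedure was tested on simulated data. Members, gene lists and tests were chosen with earlier results of these data known. Genes named are all members, the 3 genes of highest correlation with each, and up to 3 called genes of smallest adjusted p in each direction from each list, lists of 6 or fewer in full. Cd74, Gzmb, Cst6, Cst7, Mcpt8, single marker genes and, between CD45+ groups, Atp6v0a1 were named after their values were seen. Alternatives were a pseudocount of 0.1, no filter, trimmed-mean, median-ratio and common-sum scaling, globin genes removed, 1 fit over all libraries, a replicate block, curated models only, and each library left out. Those for the gene lists, and counts without genes below 1 FPKM throughout a group, were added after seeing the data. Python 3.11.15 with pandas 2.3.3, numpy 2.4.6 and matplotlib 3.10.9 made tables and figures.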

Additional observations from a re-analysis of the deposited data

Results flagged for a closer look

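In groups of 4 libraries, an extreme value whose gap to its nearest neighbour passed Dixon's critical share of the group's range was singled out, which chance does for about 1 in 20 groups. The 21 genes tested here share the same 4 tumor CD45+ libraries, so they are not independent groups. The rate of 1 in 20 therefore cannot be set against their count. Among these 21 genes, 6 were singled out, 4 of them members, and tumor replicate 1 was the library in each. It was lowest for Ctsc (214.21 FPKM) and Ctsl (1370.89 FPKM). It was highest for Ctse (1.12 FPKM), Ctsk (20.68 FPKM), Cst3 (3207.69 FPKM) and Stfa2l1 (16.24 FPKM). The same library also had the highest share of globin RNA and the highest levels of Dcn, Lum and Pdgfrb of its group. It was the lowest of its group for Col1a1, Col1a2, Col3a1 and Pdgfra. Its summed level of neutrophil markers was also the highest, with S100a8 at 1059.5 FPKM, against 17.6 to 23.9 in the other tumor libraries, and Ngp at 65.6, against 0.12 to 0.25. Without it the log2 changes in tumor against splenic CD45+ libraries were 3.98 for Ctsc, 6.30 for Ctsl, -8.72 for Ctse and 2.98 for Ctsk, each still called.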

How the results depend on the processing

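Over 464 single-gene values of the members under the alternatives, 439 kept their direction and their side of the threshold, 18 lost the call, 1 gained it and 6 changed sign. The sign changes were all in splenic CD45+ against splenic CD45- libraries, for Ctsd (-0.63 with trimmed-mean and -0.66 with median-ratio scaling, -0.15 with globin genes removed, -0.092 to 0.22 with a library left out, negative without splenic CD45+ replicate 1) and Ctsb (0.27 with a common sum, -0.55 to 0.28 with a library left out, positive without splenic CD45+ replicate 2). The lost calls were those of Ctse within the spleen and of Ctsh between CD45+ groups, which was also lost with a pseudocount of 0.1 (adjusted p = 0.0533) and with no filter (0.0769). The cause was not tested. Members called lower within the spleen numbered 0 with no filter, 2 with trimmed-mean scaling, 2 with median-ratio scaling and 0 with a common sum, and 0 to 1 with a library left out. With a library left out, members called higher numbered 5 to 6 within the spleen, 8 to 9 in tumor against splenic CD45+ and 9 in tumor against splenic CD45- libraries, and genes called numbered 3964 to 6737, 6450 to 8403 and 9893 to 10220. Without splenic CD45+ replicate 2 and tumor replicate 1 together, 9 members were higher and 1 lower.

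Whether replicate numbers pair the libraries is not stated, and correlations over so few libraries cannot decide it. Deviations of same-numbered libraries correlated at 0.11, 0.068 and -0.014 within the spleen, at -0.18, -0.10 and -0.044 between CD45+ groups and at 0.24, 0.092 and -0.022 between tumor CD45+ and splenic CD45- groups. Those of differently numbered libraries correlated at -0.096 to 0.050, -0.10 to 0.18 and -0.32 to 0.26 in the same order. With the replicate block, 5 members were higher and 1 lower within the spleen, 8 and 1 between CD45+ groups (Ctsh at an adjusted p of 0.0703) and 9 and 1 in the third comparison, and genes called numbered 4851, 5684 and 10130. Depth limits Ctsk in the spleen and Ctse in the tumor.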
